A study of Mus musculus with 6 samples.

Results

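Chd7 encodes a chromatin remodeller of the CHD family and is 1 of 10366 genes named by a probe set of 1 symbol. It was measured by 23 probe sets, of 14610 tested on the arrays and 11229 that carry 1 gene symbol. Every probe set annotated to Chd7 alone was taken, in order of its identifier. The gene was chosen with its difference between the arrays labelled Zeb2-KO and wild type (WT) already known, through the probe set with the lowest difference, so its differences between genotypes are a description, without a test. In the RefSeq gene table (GRCm38.p6) Chd7 lies on mouse chromosome 4 from 8690402 to 8868449. All 23 probe sets share 1 RefSeq transcript in the platform annotation. Where in the transcript each one lies, in exon or untranslated region, is not given in the sources used here.

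Expression was measured on 6 arrays of LKS-Slam cells, mouse bone marrow cells sorted on a gate that enriches strongly for hematopoietic stem cells. The 3 arrays labelled Zeb2-KO came from Zeb2 fl/fl Mx1-Cre mice, named Zeb2Δ/ΔMx1-Cre after deletion, and the 3 WT arrays from C57Bl/6 mice. Mx1-Cre is a recombinase under an interferon-inducible promoter that is not restricted to stem cells. Mice of both groups received the interferon inducer pIC at 6 weeks of age, and marrow was taken 8 weeks later, at 14 weeks. The WT mice are not described as carrying Mx1-Cre, so Cre and the loss of Zeb2 cannot be told apart.

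The proteins CHD1 to CHD9 carry paired chromodomains, which in some of them bind methylated histone tails, and an ATPase motor of the SNF2 type, which slides nucleosomes along DNA. CHD7 is known for binding active enhancers marked by H3K4 monomethylation, and loss of 1 copy causes CHARGE syndrome in humans. In blood formation it has been tied to RUNX1, a transcription factor of stem cells.

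Some arrays stood apart. Zeb2, the gene to be deleted, was not lower but higher in the arrays labelled Zeb2-KO, at log2 intensities of 7.79, 9.13 and 8.96 against 6.58, 7.51 and 7.34 in WT (difference 1.48, SE 0.40, limma adjusted p = 0.581). Which exons were deleted is not stated, and a probe set outside them checks nothing. Every direction below therefore rests on the labels. The mean of 3 Y-linked probe sets was 6.17 in Zeb2-KO replicate 1 and 5.13 in WT replicate 1, against 3.82 to 4.03 in the other 4 arrays, and Xist was lowest in the same pair (8.15 and 9.70, against 10.70 to 11.09). WT replicate 1 correlated least with the other arrays (mean r 0.841). Of 8 markers of the gate, 6 were measured, and 4 of them lay lower in the arrays labelled Zeb2-KO. These were Procr (-0.45, without overlap), Mecom (-0.38), Fgd5 (-0.29) and Hlf (-0.21). The stem cell receptors Kit and Slamf1 lay higher, both without overlap. Kit stood at 10.18 ± 0.047 against 9.65 ± 0.57 in WT and Slamf1 at 8.54 ± 0.41 against 7.24 ± 1.28 in WT (SD, n = 3). None of the 6 passed (limma, 1 with an unadjusted p under 0.05, beside 7.02% of all tested probe sets). Of the markers usually absent from the gate, Cd48 lay at -1.02 and Flt3 at 0.69.

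The Chd7 probe sets did not share 1 direction. The log2 intensity was lower in the arrays labelled Zeb2-KO in 16 of the 23 and higher in 7, beside 55.4% lower over all tested probe sets. The median difference was -0.28 log2 and the mean -0.38, and single probe sets ran from -2.06 to 2.21. Over all tested probe sets the median difference was -0.089, and over those at or above the median level it was 0.18. Of the 23 Chd7 probe sets, 15 had a mean below that median level. Without both arrays with raised Y-linked signal, 16 of 23 were again lower, with a median of -0.32. With 1 array left out, the median came closest to 0 when that array was Zeb2-KO replicate 2 (-0.13) or WT replicate 1 (-0.15) and lay farthest from it when it was Zeb2-KO replicate 1 (-0.44). In a bulk sample fewer cells that express a gene and less RNA per cell cannot be told apart.

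Differences of at least 1.5-fold were found in 8 Chd7 probe sets on the lower side, where 3.68% of all tested probe sets lay, and in 2 on the higher side, where 12.9% lay. These shares are not matched for spread. The median SD within groups was 0.53 over the Chd7 probe sets and 0.35 over all tested. Without WT replicate 1 the count on the lower side was 5. On the higher side, leaving out Zeb2-KO replicate 2 gave 4 and leaving out WT replicate 3 gave 1. The values of both groups did not overlap in 3 probe sets on the lower side (6.26% of all tested) and in 1 on the higher side (6.9% of all tested), 4 in all beside 13.2% of all tested. No Chd7 probe set passed an adjusted p of 0.05 in the limma fit, which 0.0137% of all tested probe sets did. An unadjusted p under 0.05 was reached by 6 of the 23, beside 7.02% of all. Without WT replicate 1, probe set 10503172 passed (difference -2.95, limma adjusted p = 0.0442). Because the gene was chosen from this contrast, nothing is read from these counts or from that call.

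**Figure D1:**
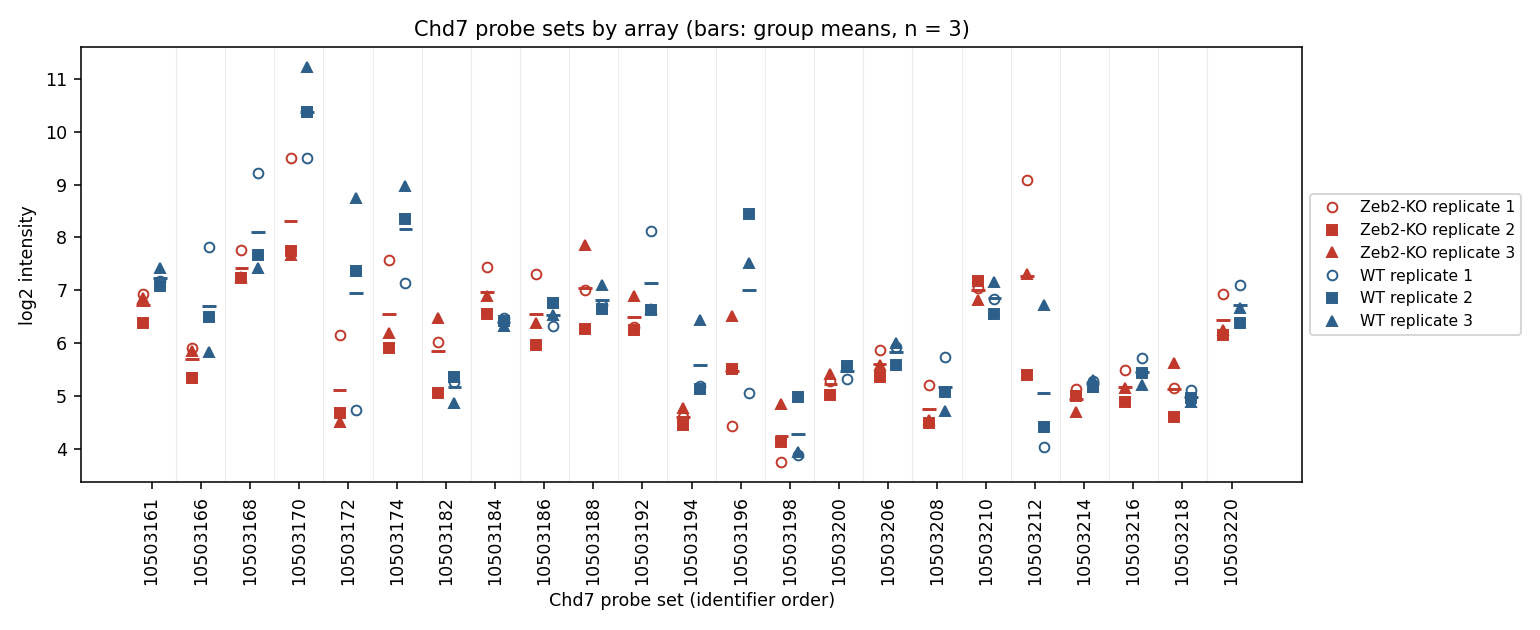
Log2 intensity (vertical axis) of the 23 Chd7 probe sets in identifier order (horizontal axis), with the arrays labelled Zeb2-KO in red at the left of each pair and WT in blue at the right; symbols mark replicates and short bars the means of 3 arrays. Probe sets 10503170, 10503172, 10503174, 10503196 and 10503212 spread over 3.06 to 5.04 log2 units across the 6 arrays, while 6 of the 23 spread over less than 1.

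The 3 lowest differences lay in probe sets that follow each other in identifier order. Probe set 10503170 stood at 9.51, 7.74 and 7.67 in Zeb2-KO replicates 1 to 3, against 9.50, 10.37 and 11.22 in WT replicates 1 to 3. On the linear scale of the deposited table these are 729.5, 213.6 and 203.1 against 725.4, 1327 and 2391. The difference was -2.06 (SE 0.54), a 4.17-fold lower mean. Replicate 1 of both groups had nearly the same value, so the groups overlapped by a narrow margin, and the other 4 arrays lay far apart.

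Probe set 10503172 stood at 6.16, 4.68 and 4.51 in the arrays labelled Zeb2-KO, against 4.74, 7.37 and 8.75 in WT, a difference of -1.84 (SE 0.82). Probe set 10503174 stood at 7.57, 5.91 and 6.19, against 7.15, 8.34 and 8.98 in WT, a difference of -1.60 (SE 0.52). In both, as in 10503170, Zeb2-KO replicate 1 was the highest of its group and WT replicate 1 the lowest of its own. Without these replicates the differences of the 3 probe sets were -3.10, -3.47 and -2.61. With WT replicate 3 left out, that of 10503172 was -0.94.

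Probe set 10503196 was another low one, at 4.43, 5.51 and 6.51 in the arrays labelled Zeb2-KO, against 5.06, 8.45 and 7.52 in WT (difference -1.53, SE 0.76). WT replicate 1 again lay inside the range of the arrays labelled Zeb2-KO. Leaving out WT replicate 2 gave -0.81, and leaving out WT replicate 1 gave -2.50.

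In a separate set of probe sets WT replicate 1 stood highest. Probe set 10503166 stood at 5.91, 5.35 and 5.84 in the arrays labelled Zeb2-KO, against 7.82, 6.49 and 5.83 in WT (difference -1.01, SE 0.45). Probe set 10503168 stood at 7.77, 7.24 and 7.24, against 9.21, 7.68 and 7.43 in WT (difference -0.69, SE 0.44). Probe set 10503192 stood at 6.31, 6.26 and 6.90, against 8.13, 6.63 and 6.64 in WT (difference -0.65, SE 0.42). In each, WT replicate 1 was the highest of the 6 arrays. The other WT arrays lay within the range of the arrays labelled Zeb2-KO, except WT replicate 2 of 10503166, which lay above it. Leaving out WT replicate 1 gave differences of -0.46 in 10503166, -0.13 in 10503168 and -0.15 in 10503192.

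Groups did not overlap in 10503161, 10503194 and 10503214 on the lower side. Probe set 10503161 stood at 6.93, 6.38 and 6.85, against 7.17, 7.08 and 7.43 in WT (difference -0.50, SE 0.29), and leaving out Zeb2-KO replicate 2 gave -0.34. It is the 1 Chd7 probe set for which the annotation lists further transcripts beside the shared one. Probe set 10503194 stood at 4.60, 4.45 and 4.78, against 5.18, 5.14 and 6.44 in WT (difference -0.98, SE 0.37), and leaving out WT replicate 3 gave -0.55. Probe set 10503214 stood at 5.12, 5.01 and 4.70, against 5.28, 5.17 and 5.31 in WT (difference -0.31, SE 0.27), and leaving out Zeb2-KO replicate 3 gave -0.19. In these 3 every array labelled Zeb2-KO lay below every WT array.

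On the higher side, probe set 10503212 stood at 9.09, 5.40 and 7.30 in the arrays labelled Zeb2-KO, against 4.04, 4.42 and 6.71 in WT. The difference was 2.21 (SE 0.86), the highest of the 23 and close in size to that of 10503170 on the lower side. Its 6 arrays spanned 5.04 log2 units, the widest span of any Chd7 probe set, and WT replicate 3 lay above Zeb2-KO replicate 2. Leaving out both arrays with raised Y-linked signal gave 0.79, leaving out Zeb2-KO replicate 1 alone 1.29, and leaving out Zeb2-KO replicate 2 3.14. Probe set 10503184 stood at 7.44, 6.56 and 6.90, against 6.48, 6.41 and 6.33 in WT, without overlap (difference 0.56, SE 0.31), and leaving out Zeb2-KO replicate 1 gave 0.32. Probe set 10503182 stood at 6.03, 5.05 and 6.47, against 5.26, 5.36 and 4.86 in WT, with overlap (difference 0.69, SE 0.38). Leaving out Zeb2-KO replicate 3 gave 0.38 and leaving out Zeb2-KO replicate 2 gave 1.09.

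The other 10 Chd7 probe sets differed by less than 1.5-fold, and their groups overlapped. Their differences ran from -0.43 to 0.22, with 6 lower and 4 higher, and their SE from 0.28 to 0.39. They were 10503186, 10503188, 10503198, 10503200, 10503206, 10503208, 10503210, 10503216, 10503218 and 10503220.

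**Figure D2:**
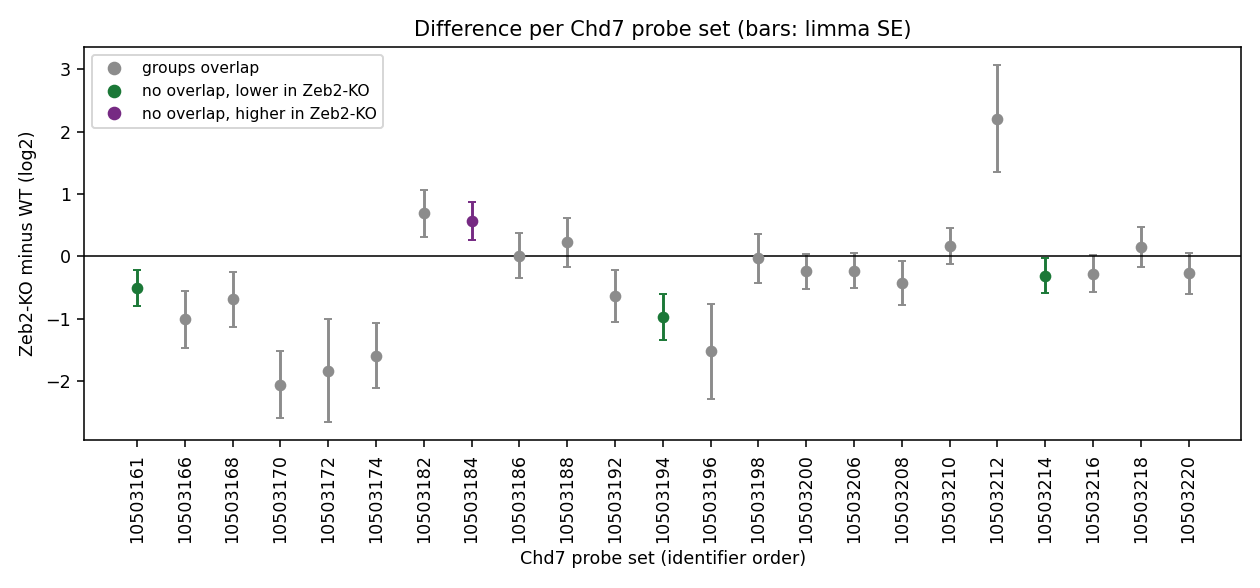
Difference in log2 intensity between the arrays labelled Zeb2-KO and WT (vertical axis) for each Chd7 probe set (horizontal axis, identifier order), with limma's SE as bars and colour for overlap between groups. Differences run from -2.06 in 10503170 to 2.21 in 10503212, and the 4 probe sets without overlap are 10503161, 10503194 and 10503214 on the lower side and 10503184 on the higher.

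Taken over all 23 probe sets, the mean log2 intensity per array was 6.34, 5.63 and 6.10 in Zeb2-KO replicates 1 to 3, against 6.25, 6.38 and 6.57 in WT replicates 1 to 3. This gave 6.03 ± 0.36 against 6.40 ± 0.16 (SD, n = 3), and the groups overlapped because Zeb2-KO replicate 1 lay above WT replicate 1. Zeb2-KO replicate 2 was the lowest array in 14 of the 23 probe sets. WT replicate 3 was the highest array in 7 and WT replicate 1 in 6. Zeb2-KO replicate 2 also had the widest interquartile range of all log2 values (2.40, against 1.59 to 2.11 in the other 5 arrays). Its part in the Chd7 values was not tested, but with that range as a covariate the median Chd7 difference was -0.12 and 14 of 23 were lower.

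Agreement among the probe sets was measured after subtracting each group's mean, so that the genotype contrast does not enter. Over the 253 pairs the median Pearson r across the 6 arrays was 0.24, 87 pairs were negative and 24 exceeded 0.8. These correlations rest on 6 arrays that all probe sets share and are descriptions only. Leaving out Zeb2-KO replicate 2 gave 0.0073, WT replicate 1 0.38, Zeb2-KO replicate 1 0.16, and quantile normalization 0.074. Probe sets next to each other in identifier order agreed to much the same extent as all pairs, with a median r of 0.25 over 22 neighbouring pairs.

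Some groups of probe sets did follow each other. Probe sets 10503170 and 10503174 correlated at 0.976, 10503172 and 10503174 at 0.933, and 10503170 and 10503172 at 0.886. Average linkage at a mean r of 0.5 put these 3 with 10503161, 10503184, 10503186, 10503206, 10503212 and 10503220, a group of 9. Its median r was 0.650, but its lowest was -0.137, so not all of its pairs agreed. In this group Zeb2-KO replicate 1 lay 0.81 above its group mean. The same linkage put 10503166, 10503168, 10503192, 10503208 and 10503216 together (median r 0.849), with WT replicate 1 at 0.81 above its group mean. It put 10503182, 10503188, 10503200 and 10503218 together (median r 0.795), with Zeb2-KO replicate 2 at 0.58 below its group mean. Probe sets 10503168 and 10503196 were the most opposed pair, at -0.890. These groups were formed after the values were seen.

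Probe sets 10503170 and 10503212, whose differences between genotypes lay at opposite ends, correlated at 0.870 within groups. In both, Zeb2-KO replicate 1 was the highest array of its group and WT replicate 3 the highest of its own. Across all 6 arrays with the group means kept, their correlation was -0.0962.

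**Figure D3:**
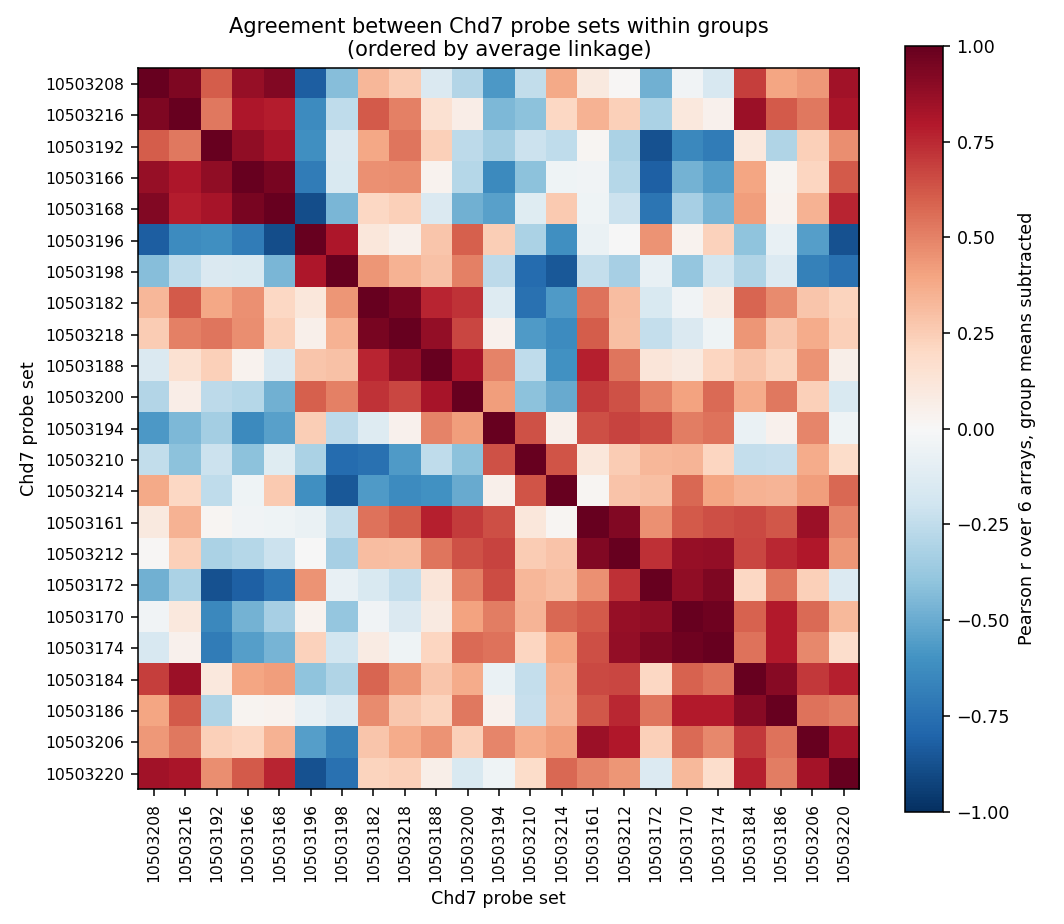
Pearson r between each pair of Chd7 probe sets over the 6 arrays after subtracting group means (colour scale from -1 to 1), with both axes listing the 23 probe sets in the order of average linkage. Blocks of high r, such as 10503170, 10503172 and 10503174, stand beside pairs below 0, and the median over 253 pairs is 0.24.

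Chd7 had more probe sets than any other gene with 1 symbol on these arrays. Among the 35 genes with at least 5 probe sets, the SD of the differences over the probe sets of 1 gene was 0.92 for Chd7, the third highest after Adgrl2 (1.45, 8 probe sets) and Cspp1 (1.07, 12 probe sets). The median of this SD over the 35 genes was 0.38. The range of the Chd7 differences, 4.27, was the widest of the 35, and a range grows with the number of probe sets. Among the 12 genes with at least 10 probe sets the Chd7 SD was the second highest. The lowest difference, through which Chd7 was chosen, enters its SD and its range. Nothing is therefore read from these ranks. In agreement within groups Chd7 ranked 27 of 35, with its median r of 0.24 beside a median of 0.58 over these genes. Some of them, such as Cwc22 with 8 probe sets and 2 distinct profiles, hold probe sets with identical values, whereas all 23 Chd7 profiles are distinct.

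**Figure D4:**
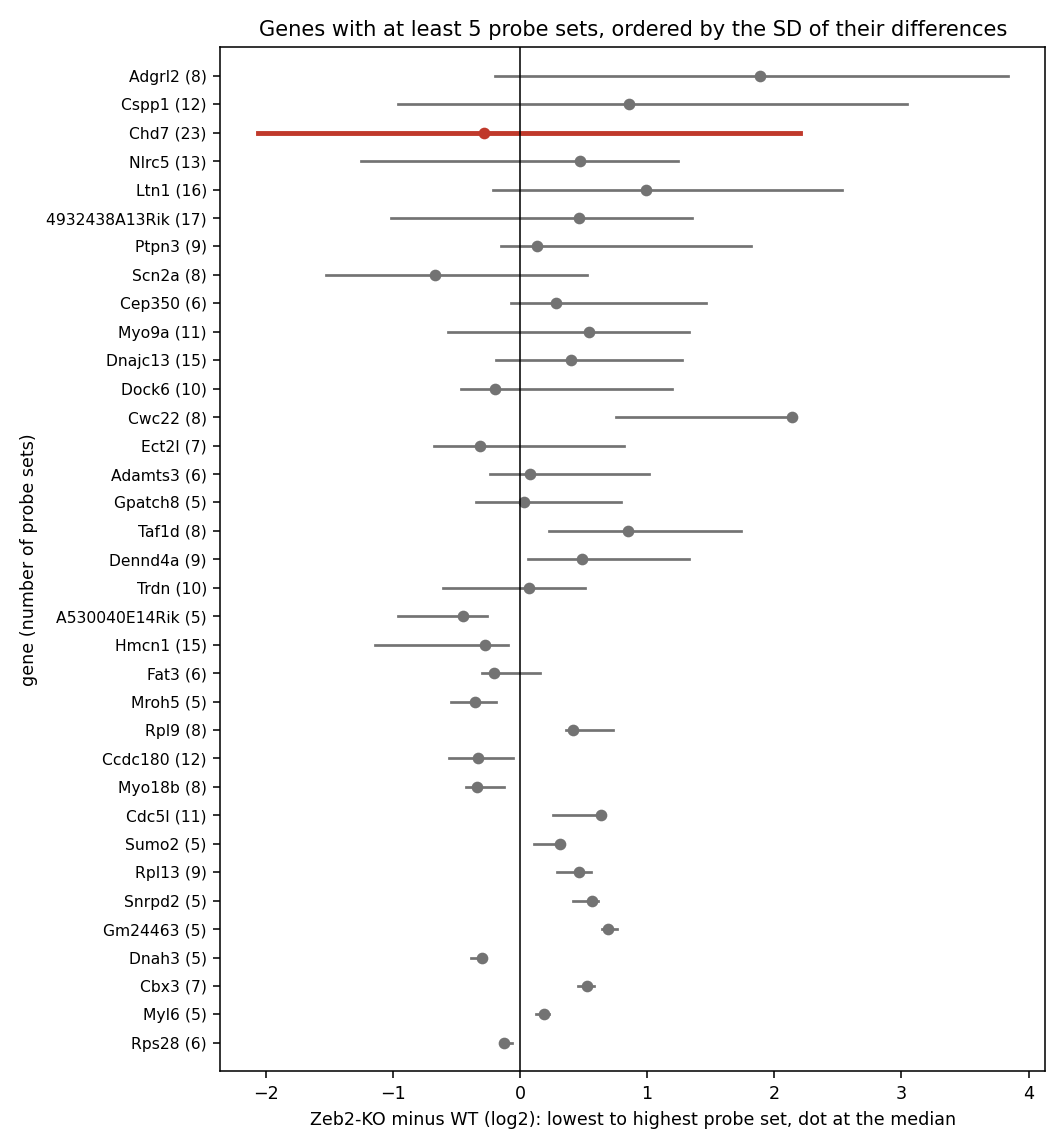
Lowest to highest difference in log2 intensity, arrays labelled Zeb2-KO minus WT (horizontal axis), over the probe sets of each of the 35 genes with at least 5 (vertical axis, number of probe sets in brackets), with a dot at the median and Chd7 in red. Chd7 runs from -2.06 to 2.21 around a median of -0.28.

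Of 9 other CHD family genes, 5 were measured, and all 5 lay higher in the arrays labelled Zeb2-KO in the probe set with the highest mean. None passed over all probe sets (limma, 1 of 5, Chd1l, with an unadjusted p under 0.05, beside 7.02% of all tested). Over all tested probe sets 44.6% lay higher, but that share is not matched for level. All 5 genes lay at or above the median level, where the median difference over all probe sets was 0.18. Chd1l, a remodeller activated by poly(ADP-ribose) at DNA damage, was listed by its name and lacks the paired chromodomains. It stood at 7.34, 7.66 and 7.35, against 6.44, 6.21 and 6.84 in WT. The groups did not overlap, and the difference was 0.95 (SE 0.29, limma adjusted p = 0.606).

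Chd6 and Chd8 belong with Chd7 to 1 subfamily. Chd6 stood at 7.86, 7.64 and 8.03, against 6.83, 7.63 and 7.24 in WT, a difference of 0.61 (SE 0.30, limma adjusted p = 0.673). Its groups were separated by a narrow margin, and its other probe set, 10578189, had a difference of 0.94 with overlap. Chd8, a regulator of Wnt target genes, stood at 8.81, 8.82 and 8.69, against 8.23, 8.69 and 7.45 in WT, a difference of 0.65 (SE 0.34, limma adjusted p = 0.673).

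Chd4, the motor of the NuRD corepressor that ZEB2 is known to recruit, stood at 9.89, 10.07 and 9.89, against 9.44, 9.96 and 9.53 in WT (difference 0.31, SE 0.28). Chd1, which works on transcribed genes, stood at 9.06, 9.42 and 9.09, against 8.59, 9.31 and 9.07 in WT (difference 0.20, SE 0.30). The groups of both overlapped. The median difference over the family, Chd1l included, was 0.61, and it ran from 0.31 without WT replicate 3 to 0.81 without WT replicate 2. Leaving out WT replicate 1 gave 0.41, and the median was 0.40 without both arrays with raised Y-linked signal.

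**Figure D5:**
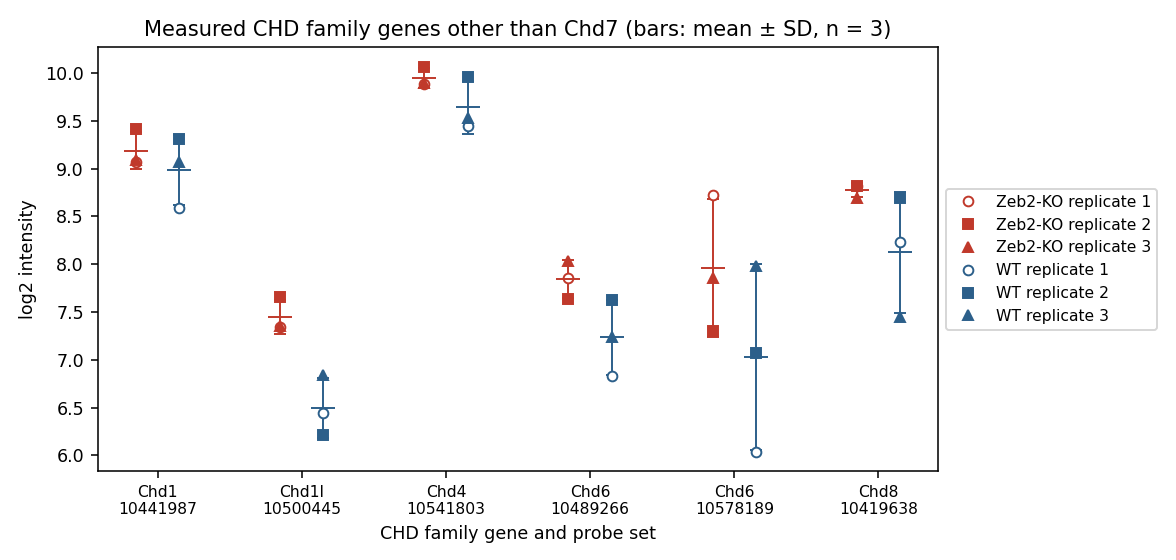
Log2 intensity (vertical axis) of the 5 measured CHD family genes other than Chd7, by probe set (horizontal axis), with the arrays labelled Zeb2-KO in red at the left and WT in blue at the right, symbols for replicates and bars for mean ± SD of 3 arrays. The groups do not overlap in Chd1l and in Chd6 probe set 10489266, and overlap in the other 4 probe sets.

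Over 6 lists of remodellers and related genes, which include the CHD family, 56 of 97 genes were measured. Of these, 40 lay higher in the arrays labelled Zeb2-KO, beside 44.6% higher over all tested probe sets. That share is not matched for level, because most of the 56 lay at or above the median level. There the median difference over all probe sets was 0.18, against -0.089 over all tested. None of the 56 passed an adjusted p of 0.05 (limma). An unadjusted p under 0.05 was reached by 5 of the 56, all higher, beside 7.02% of all tested probe sets, so that this count lies near the background. Subunits of SWI/SNF, the BRG1 and BRM remodeller that CHD7 has been found with, had a median difference of 0.29, with 10 of 12 higher. Among them Phf10 lay at 0.86, Smarcc1 at 0.84 and Smarcc2 at 0.52 (limma adjusted p = 0.661, 0.662 and 0.673). Leaving out Zeb2-KO replicate 1 gave a SWI/SNF median of 0.46, leaving out either Zeb2-KO replicate 2 or WT replicate 1 gave 0.19, and adjusting for the spread of each array (its interquartile range) gave 0.061.

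Subunits of NuRD other than CHD proteins lay higher in 8 of 8 (median 0.20), and the smallest p belonged to Cdk2ap1 (0.96), Mta1 (0.44) and Hdac2 (0.30). ISWI, INO80 and other SNF2-type motors had a median of 0.16, with 10 of 16 higher. The smallest p among them belonged to Hells (0.76), a remodeller needed for DNA methylation, Smarcal1 (0.36) and Hltf (0.59), both of which work at stalled replication forks. Complexes that write H3K4 methylation, the mark CHD7 reads, had a median of 0.21, with 6 of 10 higher. Pagr1a (1.02), Ash2l (0.73) and the H3K27 demethylase Kdm6a (0.76) had the smallest p there. The list median of the SNF2-type motors was -0.024 with quantile normalization and -0.017 without both arrays with raised Y-linked signal. That of the H3K4 complexes was -0.12 when adjusted for array spread and -0.093 without Zeb2-KO replicate 2. Leaving out 1 array, the NuRD median was 0.069 for Zeb2-KO replicate 2, 0.079 for WT replicate 1 and 0.45 for WT replicate 2, and it was 0.015 after quantile normalization and 0.027 when adjusted for array spread. These medians stand beside 0.18 over all probe sets at or above the median level and -0.089 over all tested.

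Genes that other work ties to CHD7 showed small differences. Of 14, 5 were measured, and Runx1 and the Sox genes were not among them. The median was -0.029 and lay on either side of 0 between alternatives, from -0.21 without WT replicate 2 and -0.18 with quantile normalization to 0.061 without both arrays with raised Y-linked signal, and no member had an unadjusted p under 0.05 (limma). Twist1, a mesenchymal factor of the neural crest, lay at -0.34, Parp1 at 0.053 and the neural crest factor Snai2 at -0.036. Sema3e, a guidance molecule controlled by CHD7 in neural crest cells, lay at -0.029 and Cbfb, the partner of RUNX1, at -0.015.

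The nearest measured genes on each side of Chd7 on chromosome 4 were also compared. They do not adjoin it, since other genes of the RefSeq table lie between, 3 for Rab2a, 15 for Tox, 6 for Clvs1 and 10 for Asph. Of the nearest 2 with a probe set before it, Rab2a, a vesicle transport GTPase at 8535469 to 8607702, had differences of 0.14 in probe set 10503150 and 1.46 in 10529873, and Tox, a factor of T cell development, had -0.13. Of the nearest 2 after it, Clvs1 lay at -0.38 and Asph, an aspartyl hydroxylase, at 0.61. The groups overlapped in every one of these probe sets, and none passed (limma adjusted p from 0.673 to 0.852).

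The mean Chd7 profile over its 23 probe sets, with group means subtracted, was compared with 5783 other probe sets of 1 symbol at or above the median level. The 5 most alike genes were Zmiz1 (r 0.990), Scarna17 (0.984), Anks1 (0.979), Gm10548 (0.972) and Snhg17 (0.971), over 6 arrays. Of all candidates, 16 exceeded 0.95. With so few arrays and group means subtracted, a high r is easily reached by some of this many candidates. How many unrelated profiles would exceed 0.95 was not tested, so no shared regulation is read from these genes. The differences of the 5 named genes between the arrays labelled Zeb2-KO and WT ran from -0.44 in Snhg17 to 0.30 in Gm10548, with overlap in all 5.

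Summed levels of the marker lists for B cells, monocytes and dendritic cells, megakaryocytes and erythroid cells did not overlap between the genotype labels. Those for granulocytes and T cells overlapped. Over all tested probe sets 13.2% did not overlap, a share for single probe sets and not for sums. Whether the sorted stem cells themselves or other cells expressed these markers cannot be told apart in a bulk sample. All 7 measured B cell markers of 8 lay lower, and their summed log2 level ran from 44.7 to 51.6 in the arrays labelled Zeb2-KO, against 52.1 to 57.4 in WT. All 5 measured monocyte and dendritic cell markers of 7 lay lower too, with sums of 38.3 to 41.6 against 42.0 to 44.8 in WT. They were Cd74, H2-Eb1, H2-Ab1, Ctss and Irf8, while Itgam and Csf1r were not measured. These 5 are not restricted to monocytes and dendritic cells. Their lower level cannot be told apart from that of the B cell markers. The 4 measured megakaryocyte markers of 5 lay higher, with sums of 34.0 to 38.1 against 27.5 to 31.2 in WT, and the 3 measured erythroid markers of 5 lay higher, with sums of 25.4 to 25.8 against 21.7 to 23.3. Of the 4 granulocyte markers, 2 lay higher, with sums of 24.6 to 28.1 against 24.1 to 24.8 in WT. The 2 measured T cell markers of 4 gave sums of 10.7 to 11.2 against 10.8 to 11.5. None of these markers passed over all probe sets (limma, smallest adjusted p 0.333), and 12 of the 25 had an unadjusted p under 0.05, beside 7.02% of all tested probe sets. No array value is at 0, and the part of these cells in the Chd7 values was not tested.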

How the data were processed

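Per the labels' protocols, RNA from the sorted cells was amplified and biotin-labelled for 1 array per sample. The authors deposited intensity values, summarised by probe set with RMA per the submitters' processing notes. No software version or later scaling is given in these sources. The values are on a linear scale, so log2 was taken. Of 20220 probe sets, 5610 with identifiers below the first annotated one were treated as controls and left out. The other 14610 were fitted together with limma 3.58.1 in R 4.3.3 (lmFit, eBayes, Benjamini-Hochberg, threshold 0.05), which was also tested on simulated data. The 3 replicates per group limit the precision. Differences are log2 values, Zeb2-KO minus WT. Lists used the probe set with the highest mean per gene, and symbols were updated by gene identifier (11184 of 11229 found). The named genes are Chd7, Zeb2, the CHD family, the nearest 2 measured genes on each side, the 3 smallest p in each gene list, and the 5 most alike profiles. The members and lists were chosen with earlier results of these data known. The alternatives were a filter on dim probe sets, normalization, variance prior, array weights, covariates, replicate block, controls and left-out arrays. Leaving out both arrays with raised Y-linked signal was added after seeing the data.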

Additional observations from a re-analysis of the deposited data

How the results depend on the processing

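Under the alternatives run, the median Chd7 difference stayed below 0, from -0.13 to -0.44 when 1 array was left out. It was -0.58 over the 8 probe sets at or above the median level, -2.06 for the brightest probe set alone, -0.15 with quantile normalization and -0.12 when adjusted for array spread (interquartile range). The number of lower probe sets was 15 to 18 with 1 array left out, and 5 of 8 at or above the median level. The number at least 1.5-fold lower was 5 to 9 with 1 array left out, 5 with array weights, 5 when adjusted for array spread, and 4 of 8 at or above the median level. The number at least 1.5-fold higher was 1 to 4 with 1 array left out, 5 with array weights and 0 at or above the median level. Of the 23 probe sets, 16 kept the sign of their difference under every alternative and 7 changed it under at least 1. The agreement within groups (median r 0.24) was 0.0073 to 0.38 with 1 array left out and 0.074 with quantile normalization. Over all probe sets 2 passed, 0 with the replicate block, 1 when adjusted for array spread, 1 with dim probe sets left out, 1 without both arrays with raised Y-linked signal, 978 with array weights and 2 to 18 with 1 array left out. With array weights, 5 Chd7 probe sets passed (10503170, 10503172, 10503174, 10503182 and 10503194), and so did 3 listed genes, Smarcc2, Phf10 and Ash2l. Nothing is read from the Chd7 calls, because the gene was chosen from this contrast. The weights were 8.22 for Zeb2-KO replicate 3, 1.89 for WT replicate 3 and 0.38 to 0.65 for the others. The weighted fit thus rested mostly on replicate 3 of each group. Why it made more calls was not tested. Same-numbered arrays had deviations from their group means that correlated at 0.360, 0.414 and 0.047, the last of them close to 0, and the labels give the numbers no shared source. Every array correlated best with its own number, a hint from the data and not from the design. The replicate block left each Chd7 difference as it was and moved the count with an unadjusted p under 0.05 to 2595, against 1025 without it. It changed no call of a Chd7 probe set or listed gene. The table gives no detection calls, so how far the dim probe sets rise above background is unknown.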
